A study of Mus musculus with 19 samples.

Results

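The RNA levels of 8 mouse genes of the LIN28, let-7 and microRNA pathway were followed across 19 RNA sequencing libraries of mouse embryonic stem cells (mESC) and of the epiblast-like cells (EpiLC) made from them. The genes were Lin28a, Lin28b, Trim71, Hmga2, Dgcr8, Drosha, Dicer1 and Ago2, chosen by name with earlier results of these data known. The transcript rows of each gene were summed, which gave 8 of the 54119 genes in the table, and all 8 passed the filter on low values among 14972 genes tested. The mESC were kept in 2i medium with GSK3 and MEK1/2 inhibitors and LIF, and for EpiLC the LIF was withdrawn and FGF5 with Activin A given over 5 days. The groups were wild-type XX mESC (3 libraries) and EpiLC (3), and Tet3-/- XX mESC (4) and EpiLC (3), all from the LF2 line, and wild-type XY mESC (3) and EpiLC (3) from the E14 line. Tet3 encodes an enzyme that oxidises 5-methylcytosine, and the series asked whether it is needed for the passage from mESC to EpiLC.

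let-7 microRNAs are small RNAs that pair with messenger RNAs through their seed, a short stretch near the 5′ end, and lower the output of those messengers. Their precursors are cut in the nucleus by the microprocessor, in which DROSHA is the nuclease and DGCR8 its RNA-binding partner, then in the cytoplasm by DICER1, and the mature strand is loaded into AGO2. LIN28A and LIN28B bind let-7 precursors and block their maturation, LIN28A through recruitment of uridylating enzymes, and Lin28 genes, Trim71 and Hmga2 are themselves known let-7 targets, so that the pathway forms a loop in early embryonic cells.

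The mature let-7 strands and the sites that match their seed are shown because they link the first 4 genes to the pathway. RefSeq's GRCm38.p6 records hold 9 distinct mature 5p strands of the family from 11 loci. Capitals mark the seed, bases 2 to 8, which is the same in all 9.
let-7a-5p: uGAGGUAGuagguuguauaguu
let-7b-5p: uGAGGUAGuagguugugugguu
let-7c-5p: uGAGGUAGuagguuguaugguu
let-7d-5p: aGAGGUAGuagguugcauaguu
let-7e-5p: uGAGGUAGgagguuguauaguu
let-7f-5p: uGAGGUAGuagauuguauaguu
let-7g-5p: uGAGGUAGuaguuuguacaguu
let-7i-5p: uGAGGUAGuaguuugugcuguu
miR-98-5p: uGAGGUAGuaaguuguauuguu
The let-7a strand shown lies at chr13:48538239-48538260 on the minus strand. The let-7g strand lies at chr9:106178846-106178867 on the plus strand, and the miR-98 strand at chrX:151913229-151913250 on the plus strand.

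The DNA complement of the seed, CTACCTC, and the same letters followed by A, CTACCTCA, were searched on the transcript strand in the longest annotated 3′ UTR of each gene (GENCODE M21, GRCm38). Only the transcript strand was read, since a microRNA pairs with the messenger itself, and each 8-base match contains a 7-base match. Among 12382 tested genes with a 3′ UTR, 10.3% held the 7-base match and 3.63% the 8-base match, and long 3′ UTRs held it more often. Of the 8 genes, 5 held it, at 17 places in all. All 8-base matches are printed with 11 flanking bases on each side, the match in capitals, and the coordinates are those of the capitals, all on the minus strand.
Lin28a, chr4:134005189-134005196: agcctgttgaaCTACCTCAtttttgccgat
Lin28a, chr4:134004551-134004558: tcgccacaaacCTACCTCActgtgttgaaa
Lin28b, chr10:45381022-45381029: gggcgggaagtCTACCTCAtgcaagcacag
Trim71, chr9:114512472-114512479: ttgcctaagtcCTACCTCAgcttaaatttt
Trim71, chr9:114512376-114512383: ataatttctatCTACCTCAactctttgcat
Trim71, chr9:114509047-114509054: gtatggattttCTACCTCAattttggcaaa
Trim71, chr9:114509021-114509028: caaaaagttgtCTACCTCAcgtcggcaccg
Hmga2, chr10:120364224-120364231: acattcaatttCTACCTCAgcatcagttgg
Ago2, chr15:73097982-73097989: acaatgtggatCTACCTCAgttaaacagtt

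Lin28a held 2 matches in a 3′ UTR of 2775 bases, both of 8 bases. Lin28b held 4 in 4445 bases and Hmga2 4 in 3014 bases, of which 1 each had 8 bases. Trim71 held 4 in 5512 bases, all of 8 bases. Of tested 3′ UTRs within 80% to 120% of those lengths, 15.4%, 24.2%, 16.6% and 30.1% held at least 1 match for the lengths of Lin28a, Lin28b, Hmga2 and Trim71. Ago2 held 3 in a 3′ UTR of 11064 bases, a length at which 53.2% of 47 tested 3′ UTRs held one. None was found in the 3′ UTRs of Dgcr8 (1574 bases), Drosha (169 bases) and Dicer1 (3851 bases). The Hmga2 3′ UTR searched belongs to a transcript with under 10% of Hmga2 TPM in every group mean. The main transcript, Hmga2-201, held 86.7% to 94.8%, and whether it holds the same sites was not examined. A match describes the letters only; binding was not measured, and mature microRNAs were not analysed here.

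**Figure D1:**
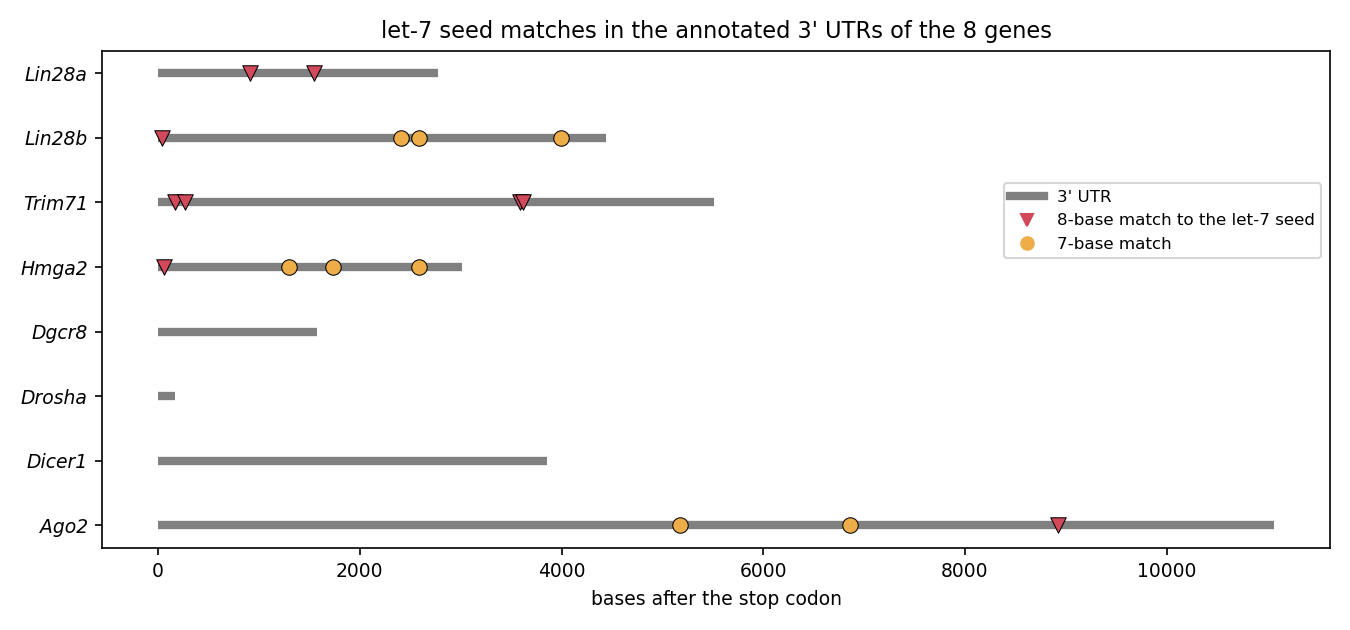
Positions of let-7 seed matches (x axis: bases after the stop codon) in the annotated 3′ UTRs of the 8 genes, drawn to scale as grey bars; triangles are 8-base and circles 7-base matches. Trim71 holds 4 triangles and Lin28a 2, while Dgcr8, Drosha and Dicer1 hold none.

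The values are TPM (transcripts per 1000000, a level per transcript length), a unit that does not record how many reads a library had; depth is thus unknown, and the spread within a group stands for the precision. One small RNA gene, Rn7s1, held from 23.5% to 43.7% of TPM, and the levels below are therefore TPM divided by a median-of-ratios factor per library (0.595 to 1.70), called scaled TPM. Without that factor the median gene moved by up to -0.59 on the log2 scale between groups (XX against XY in EpiLC), and the direction of the calls shifted. The share of called genes that were higher was 61.2% without it and 48.6% with it in the XX transition from mESC to EpiLC, 81.5% and 51.3% in the XY transition, and 82.2% and 55.7% in mESC and 11.2% and 45.7% in EpiLC when Tet3-/- was set against XX. For XX against XY it was 45.4% and 56.5% in mESC and 11.1% and 50.9% in EpiLC, and for the differences of transitions 0% and 37.4% (Tet3-/- minus XX) and 22.5% and 46% (XX minus XY). Sex and cell line cannot be told apart between XX and XY. The labels name the mutants by number and do not say whether the numbers are clones, nor whether libraries came from separate cultures, so the p-values measure the spread between these libraries, which may be technical. In bulk RNA, fewer cells of a type and less RNA per cell cannot be told apart.

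Tet3 itself had 0.656 to 1.24 scaled TPM in XX mESC and 0.522 to 0.847 in Tet3-/- mESC, and 1.40 to 1.92 in XX EpiLC and 1.06 to 1.32 in Tet3-/- EpiLC. Neither difference passed the test (-0.21, adjusted p = 0.440, and -0.35, adjusted p = 0.115). The labels do not say which part of the gene was deleted, so the summed level does not check the genotype. The naive markers summed to 410 to 594 scaled TPM in mESC. In EpiLC the sums were 86.0 to 90.3 in XX, 52.2 to 61.3 in XY and 35.7 to 49.4 in Tet3-/-, ranges that did not overlap. The epiblast-like markers summed to 12.8 to 34.8 in mESC, 51.9 to 55.1 in XX EpiLC, 65.8 to 118.5 in Tet3-/- EpiLC and 201 to 205 in XY EpiLC. Of these markers Otx2 went the other way in XX, with means of 23.6 in mESC and 11.7 in EpiLC. Its means were 20.9 and 19.1 in Tet3-/-, and 1.65 and 39.5 in XY. The other epiblast-like markers had higher means in EpiLC in every genotype. The pluripotent markers Pou5f1, Sox2 and Sall4 had a mean above 1 in every group, but their levels were not alike. Sox2 means went from 88.0 in mESC to 16.7 in EpiLC in XX, from 90.65 to 2.035 in XY and from 104.5 to 7.80 in Tet3-/-. Pou5f1 means were lower in EpiLC than in mESC in every genotype. Sall4 means went from 14.35 to 11.8 in XX, from 20.0 to 39.4 in XY and from 15.9 to 18.3 in Tet3-/-.

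The EpiLC library of Tet3-/- mutant 3 stood apart. Its 4 mesendoderm markers summed to 97.6 scaled TPM, against 4.07 and 4.97 in mutants 1 and 4, 3.13 to 3.37 in XX EpiLC and 16.2 to 19.5 in XY EpiLC, and none of the 4 was at 0 in a group. Its scaling factor was 1.33 against 0.754 and 0.654. For the 8 genes the results that use Tet3-/- EpiLC are given with and without it, and for other genes where its absence ended a call or moved the value by over 1.5 times, and the part of these marker and factor differences in the results was not tested. The fit estimates 1 spread per gene over all 19 libraries, so this library also enters the SEs of contrasts between the other groups.

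Between mESC and EpiLC the 2 LIN28 genes rose in all 3 genotypes, with EpiLC means 17.4 to 51.1 times the mESC means, Trim71 and Dicer1 rose less, and Hmga2 fell in XX and in XY. Of the 8 genes, limma called 4 higher and 1 lower in XX, 4 higher and 1 lower in XY, and 4 higher and 0 lower in Tet3-/- (adjusted p under 0.05), or 4 and 1 in Tet3-/- without mutant 3. Over all tested genes 24.5% were called higher and 25.9% lower in XX, 26.4% and 25% in XY, and 25.2% and 27.2% in Tet3-/-. Dgcr8, Drosha and Ago2 passed the test in none of the 3. On the log2(scaled TPM + 1) scale the 8 genes had a median change of 0.40 (XX), 0.47 (XY) and 0.51 (Tet3-/-; 0.20 without mutant 3), beside medians of -0.02, 0.00 and 0 over all tested genes. On TPM without scaling the calls were 3 higher and 0 lower in XX, 4 and 0 in XY, and 2 and 0 in Tet3-/-.

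**Figure D2:**
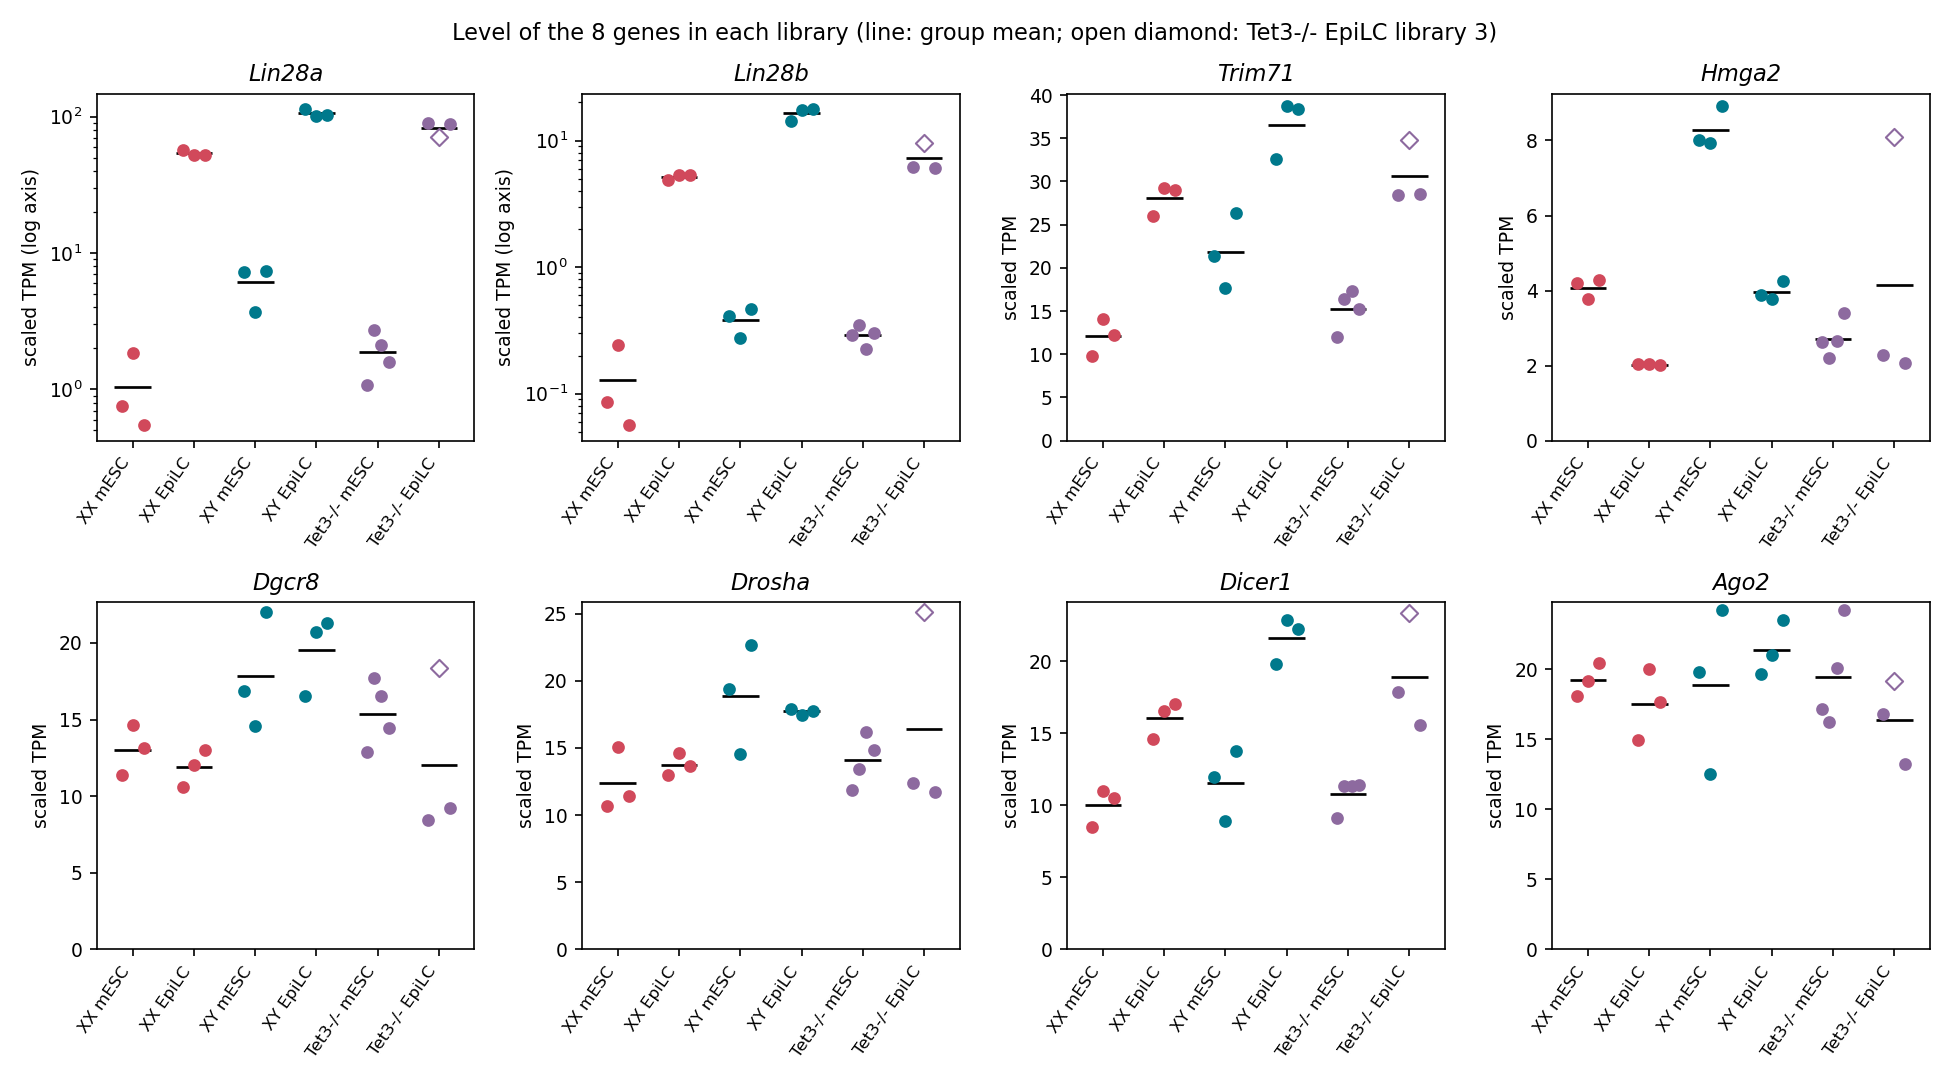
Scaled TPM of the 8 genes in each of the 19 libraries, grouped by genotype and cell state; points are libraries, lines are group means, the open diamond is the EpiLC library of Tet3-/- mutant 3, and the Lin28a and Lin28b panels have log axes. Lin28a and Lin28b are higher in every EpiLC library than in every mESC library, and the diamond is the highest point of its group for every gene but Lin28a.

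Lin28a, at chr4:134003330-134018841 on the minus strand, encodes the LIN28 paralogue that is abundant in pluripotent cells. In XX it had 0.756, 1.84 and 0.549 scaled TPM in mESC libraries 1 to 3 and 56.5, 52.2 and 52.2 in EpiLC. In XY the values were 7.22, 3.70 and 7.39 in mESC and 113, 102 and 103 in EpiLC. In Tet3-/- they were 1.07, 2.72, 2.13 and 1.59 in mESC (mutants 1 to 4) and 89.8, 70.8 and 88.7 in EpiLC (mutants 1, 3 and 4). All 9 EpiLC libraries lay above all 10 mESC libraries. Group means (± SD) went from 1.05 ± 0.69 (n = 3) to 53.6 ± 2.5 (n = 3) in XX, from 6.10 ± 2.08 (n = 3) to 106 ± 6.2 (n = 3) in XY, and from 1.88 ± 0.71 (n = 4) to 83.1 ± 10.7 (n = 3) in Tet3-/-. These are ratios of means of 51.1, 17.4 and 44.2. The fitted changes were 4.79 (SE 0.25, adjusted p = 1.76e-10), 3.96 (SE 0.25, adjusted p = 1.33e-09) and 4.89 (SE 0.23, adjusted p = 3.99e-11) on the log2(scaled TPM + 1) scale, which understates the change of low genes. Without mutant 3 the Tet3-/- change was 5.00. Of all tested genes, 99.94%, 99.87% and 99.95% had a smaller signed change in XX, XY and Tet3-/-.

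Lin28b, at chr10:45376620-45486395 on the minus strand, encodes the second LIN28 protein and had the lower mean TPM, a per-length level, of the pair in every group. Its mESC levels were between 0.0566 and 0.241 scaled TPM in XX, 0.275 and 0.465 in XY, and 0.225 and 0.348 in Tet3-/-. Its EpiLC levels were 4.84, 5.35 and 5.30 in XX, 14.2, 17.4 and 17.7 in XY, and 6.21, 9.48 and 6.10 in Tet3-/- mutants 1, 3 and 4. The cell states did not overlap in any genotype. Fitted changes were 2.45 (SE 0.14, adjusted p = 4.13e-10) in XX, 3.65 (SE 0.14, adjusted p = 3.08e-12) in XY and 2.65 (SE 0.13, adjusted p = 4.57e-11) in Tet3-/-, and 2.47 in Tet3-/- without mutant 3. The ratios of group means were 40.5, 42.8 and 24.9.

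The order of Lin28a levels over the 6 groups was XY EpiLC, Tet3-/- EpiLC, XX EpiLC, XY mESC, Tet3-/- mESC and XX mESC. Lin28b followed the same order. Neighbouring groups in it had separate ranges except Tet3-/- mESC and XX mESC for Lin28a, and XY mESC with Tet3-/- mESC and Tet3-/- mESC with XX mESC for Lin28b.

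Trim71, at chr9:114507133-114564369 on the minus strand, encodes an RNA-binding TRIM protein of early embryonic cells and a known let-7 target. It had 9.81, 14.1 and 12.3 scaled TPM in XX mESC and 26.04, 29.2 and 29.1 in XX EpiLC. XY libraries held 21.3, 17.7 and 26.3 in mESC and 32.6, 38.7 and 38.3 in EpiLC, and Tet3-/- libraries 12.0 to 17.3 in mESC and 28.4, 34.8 and 28.6 in EpiLC. Within each genotype the EpiLC libraries lay above the mESC libraries. The rises were 1.17 (SE 0.16, adjusted p = 1.39e-05) in XX, 0.73 (SE 0.16, adjusted p = 0.00106) in XY and 0.97 (SE 0.15, adjusted p = 4.14e-05) in Tet3-/-. Without mutant 3 the Tet3-/- rise was 0.87 (adjusted p = 0.000372). The Tet3-/- call was lost on unscaled TPM (0.80, adjusted p = 0.0893).

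Hmga2, at chr10:120361275-120476469 on the minus strand, encodes a chromatin-bound architectural protein and is a textbook let-7 target. It went the other way from Trim71 in the wild-type lines. XX libraries held 4.199, 3.77 and 4.27 scaled TPM in mESC and 2.03, 2.05 and 2.00 in EpiLC. XY libraries held 8.00, 7.92 and 8.91 in mESC and 3.89, 3.78 and 4.25 in EpiLC. The states did not overlap in either line, and EpiLC means were 0.497 and 0.480 of the mESC means. It fell by 0.75 (SE 0.27, adjusted p = 0.0320) in XX and by 0.90 (SE 0.27, adjusted p = 0.0116) in XY. Both SEs come from the spread shared by all 19 libraries, the mutant 3 EpiLC library among them. In the Tet3-/- transition the SE was 0.26 with that library and 0.11 without it. That library also stayed in the fits that left out 1 wild-type library. The XX call was lost without any 1 of the XX libraries but mESC library 2 (adjusted p from 0.0671 to 0.0737) and on unscaled TPM (-0.57, adjusted p = 0.343). The XY call was lost on unscaled TPM too (-0.34, adjusted p = 0.510). On TPM rescaled over nuclear protein-coding genes the XX call (-0.61, adjusted p = 0.183) and the XY call (-0.62, adjusted p = 0.162) were both lost. With no filter on low values the XX call was lost (adjusted p = 0.0745).

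In Tet3-/- cells Hmga2 had 2.64, 2.20, 2.65 and 3.40 scaled TPM in mESC and 2.28, 8.10 and 2.07 in EpiLC of mutants 1, 3 and 4. The group mean in EpiLC, 4.15 ± 3.42 (SD, n = 3), therefore rested on the mutant 3 library. The change did not pass the test with it (0.29, SE 0.26, adjusted p = 0.372) or without it (-0.22, SE 0.11, adjusted p = 0.0940).

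Dgcr8, at chr16:18253948-18289246 on the minus strand, and Drosha, at chr15:12824815-12935291 on the plus strand, encode the core of the microprocessor. Dgcr8 had 11.4 to 14.6 scaled TPM in XX mESC and 10.6 to 13.0 in XX EpiLC, and 14.6 to 22 in XY mESC and 16.5 to 21.3 in XY EpiLC. The ranges of the cell states overlapped in both lines. Changes of the summed gene were -0.12 (SE 0.22, adjusted p = 0.679) in XX and 0.14 (SE 0.22, adjusted p = 0.638) in XY. The protein-coding transcript Dgcr8-201 went in XX from 6.18 (5.11 to 8.01) in mESC to 4.43 (4.31 to 4.56) in EpiLC. The retained-intron transcript Dgcr8-205 went in XX from 1.19 (0.934 to 1.35) to 1.94 (1.72 to 2.35). In XY the Dgcr8-201 means were 8.24 and 8.46. Single transcripts were not tested. In Tet3-/- cells Dgcr8 went from 12.9, 17.7, 16.5 and 14.4 in mESC to 8.45, 18.4 and 9.20 in EpiLC, where mutant 3 again was the high library. Its change of -0.40 (SE 0.21, adjusted p = 0.115) did not pass the test, whereas without mutant 3 it was -0.73 (SE 0.16, adjusted p = 0.00136) and was called lower, with 27.7% of all tested genes called lower in that fit.

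Drosha had 10.7 to 15.1 scaled TPM in XX mESC and 13.0 to 14.6 in XX EpiLC, 14.5 to 22.7 in XY mESC and 17.5 to 17.9 in XY EpiLC, and 11.8 to 16.2 in Tet3-/- mESC. In Tet3-/- EpiLC it had 12.4, 25.2 and 11.7, with mutant 3 the highest of all 19 libraries. Its changes were 0.15 (adjusted p = 0.598), -0.07 (adjusted p = 0.836) and 0.14 (adjusted p = 0.612) in XX, XY and Tet3-/-, each with an SE of 0.21 to 0.22. Without mutant 3 the Tet3-/- change was -0.20 and was not called.

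Dicer1, at chr12:104687742-104751952 on the minus strand, encodes the nuclease that cuts the hairpin, and rose in all 3 genotypes. It had 8.52, 11.0 and 10.5 scaled TPM in XX mESC and 14.6, 16.6 and 17.0 in XX EpiLC. XY libraries held 12.0, 8.88 and 13.8 in mESC and 19.8, 22.8 and 22.3 in EpiLC, and Tet3-/- libraries 9.12 to 11.4 in mESC and 17.8, 23.4 and 15.6 in EpiLC. The states did not overlap in any genotype. The rises were 0.64 (SE 0.16, adjusted p = 0.00299), 0.87 (SE 0.16, adjusted p = 0.000227) and 0.74 (SE 0.15, adjusted p = 0.000467) in XX, XY and Tet3-/-. The XX call (0.82, adjusted p = 0.11) and the Tet3-/- call (0.58, adjusted p = 0.224) were lost on unscaled TPM and the XY call was kept. Without mutant 3 the Tet3-/- rise was 0.59 (adjusted p = 0.00349).

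Ago2, at chr15:73095844-73184935 on the minus strand, encodes the Argonaute protein that can cut its targets. Group means lay between 16.4 ± 3.0 (n = 3, Tet3-/- EpiLC) and 21.4 ± 2.0 scaled TPM (SD, n = 3, XY EpiLC), and the neighbouring groups in the order of levels overlapped throughout. The transition changes were -0.13 (adjusted p = 0.606), 0.22 (adjusted p = 0.387) and -0.23 (adjusted p = 0.320) in XX, XY and Tet3-/-, with SEs of 0.19 to 0.20, and the last was -0.34 (adjusted p = 0.180) without mutant 3.

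**Figure D3:**
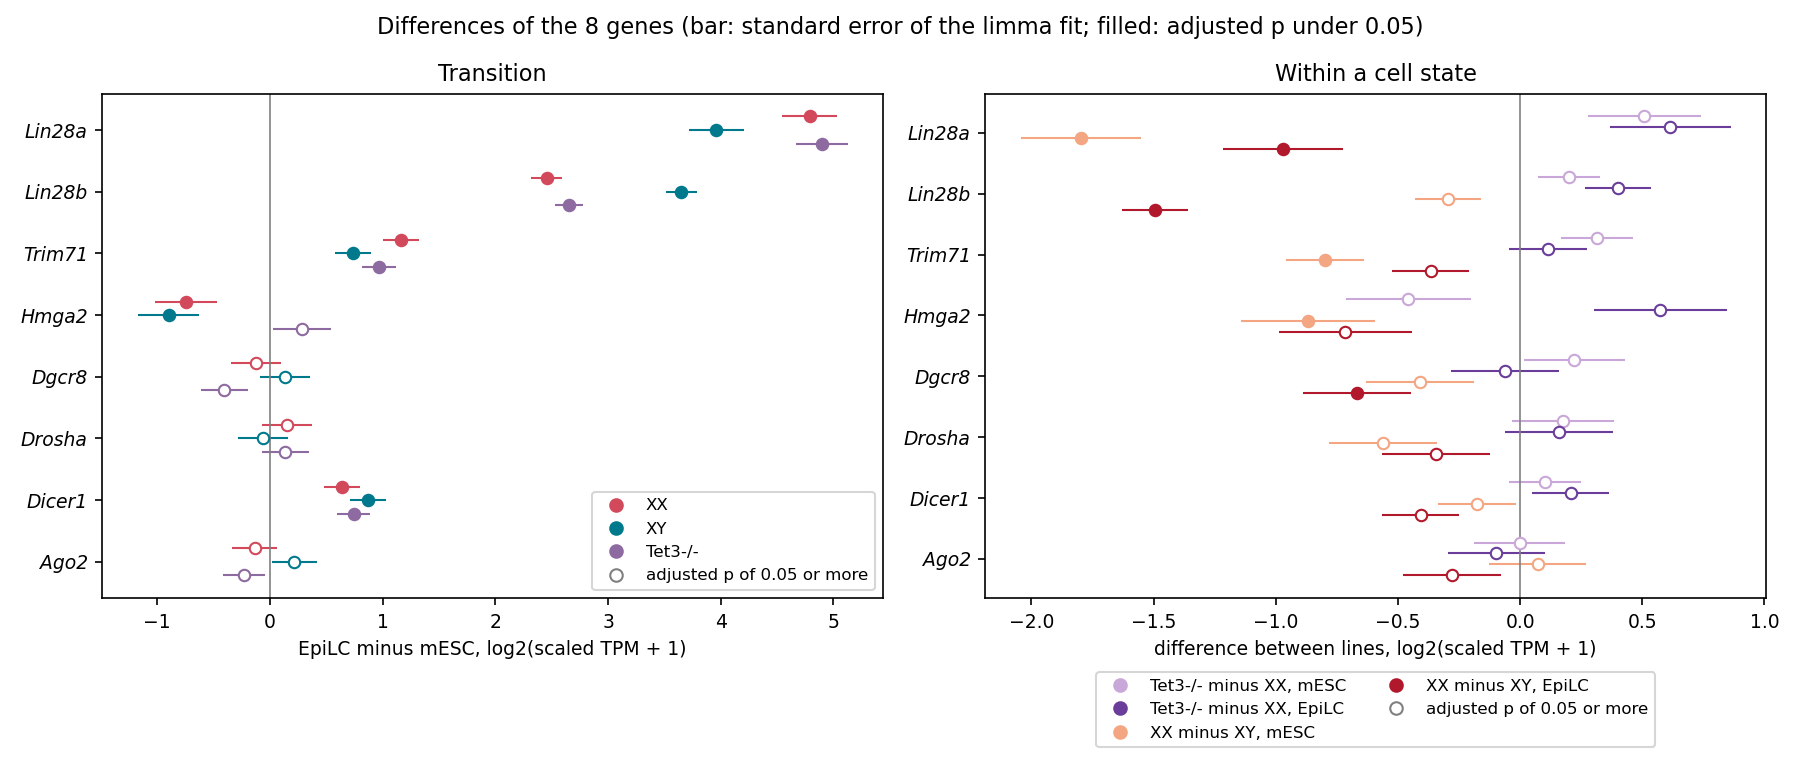
Fitted differences of the 8 genes on the log2(scaled TPM + 1) scale (x axes), EpiLC minus mESC on the left and between lines within a cell state on the right; bars are standard errors and filled points have an adjusted p under 0.05. On the left Lin28a lies between 3.96 and 4.89 and Lin28b between 2.45 and 3.65, and on the right no point for Tet3-/- minus XX is filled.

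Loss of Tet3 was compared with wild type in the same XX line, the comparison that bears on the question of the series. None of the 8 genes passed the test in mESC or in EpiLC, and limma gave 1 of 8 an unadjusted p under 0.05 in mESC and 2 of 8 in EpiLC. Over all tested genes 1.77% were called higher and 1.41% lower in Tet3-/- mESC, and 2.5% and 2.97% in Tet3-/- EpiLC. Lin28a was 0.51 higher (SE 0.23, adjusted p = 0.311) in mESC and 0.61 higher (SE 0.25, adjusted p = 0.175) in EpiLC, where its 3 Tet3-/- libraries (70.8 to 89.8) lay above the 3 XX libraries (52.2 to 56.5), and 0.72 higher (adjusted p = 0.168) without mutant 3. Without XX mESC library 2 the mESC difference was 0.77 and was called (adjusted p = 0.0414). Lin28b was 0.20 higher (SE 0.13, adjusted p = 0.522) and 0.40 higher (SE 0.14, adjusted p = 0.101), and the latter was 0.22 (adjusted p = 0.314) without mutant 3. In that fit too none of the 8 genes passed the test in EpiLC, with 2 of 8 at an unadjusted p under 0.05.

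The other 6 genes differed between Tet3-/- and XX by -0.46 to 0.31 in mESC and by -0.10 to 0.57 in EpiLC, with Hmga2 at the ends -0.46 and 0.57. Its EpiLC difference (SE 0.27, adjusted p = 0.265) was 0.07 without mutant 3. The EpiLC range of the 6 was then -0.39 to 0.07, with Dgcr8 going from -0.06 to -0.39, Drosha from 0.16 to -0.18, Ago2 from -0.10 to -0.21, Dicer1 from 0.21 to 0.05 and Trim71 from 0.11 to 0.02. The difference of the transitions, Tet3-/- minus XX, was called for 0 of 8 genes by limma, with 1 of 8 at an unadjusted p under 0.05, and over all tested genes 0.247% were called higher and 0.414% lower. That 1 gene was Hmga2 (1.03, SE 0.37, adjusted p = 0.290), whose difference was 0.52 (adjusted p = 0.1002) without mutant 3. For Lin28a the difference of transitions was 0.11 (SE 0.34) and for Lin28b 0.20 (SE 0.19), against 0.22 and 0.02 without mutant 3. The remaining 5 genes lay between -0.28 and 0.11, and between -0.61 (Dgcr8, adjusted p = 0.221) and -0.05 without mutant 3, when limma called 0 of 8 and 2 of 8 had an unadjusted p under 0.05.

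The wild-type lines were then set against each other. In mESC 0 of 8 were called higher in XX and 3 lower, namely Lin28a, Trim71 and Hmga2, where 17.7% of all tested genes were called higher and 13.6% lower. In EpiLC 0 of 8 were called higher and 3 lower, namely Lin28a, Lin28b and Dgcr8, where 17.2% of all tested genes were called higher and 16.6% lower. The epiblast-like marker sums differed between the same groups, in opposite directions in the 2 states. In mESC they were 28.0 to 34.8 in XX and 12.8 to 19.7 in XY, with Otx2 means of 23.6 and 1.65. In EpiLC they were 51.9 to 55.1 in XX and 201 to 205 in XY. The naive marker sums in EpiLC were 86.0 to 90.3 in XX and 52.2 to 61.3 in XY. The part of these marker differences in the calls was not tested. On TPM without scaling 1 of 8 was lower in mESC and 6 of 8 in EpiLC, in which that scale moved the median gene by -0.59.

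Lin28a was lower in XX than in XY by -1.80 (SE 0.25, adjusted p = 4.34e-05) in mESC and -0.97 (SE 0.25, adjusted p = 0.00602) in EpiLC, and the ranges were apart in both states. The XY mean was 5.82 times the XX mean in mESC and 1.98 times in EpiLC. Lin28b was lower in XX by -1.49 (SE 0.14, adjusted p = 4.25e-07) in EpiLC, where the XY mean was 3.18 times the XX mean. In mESC its difference was -0.30 (SE 0.14, adjusted p = 0.109), at levels under 0.5 scaled TPM, and with a pseudocount of 0.1 in place of 1 it was -1.15 and was called (adjusted p = 0.00293). Trim71 was lower in XX mESC by -0.80 (SE 0.16, adjusted p = 0.00114), a call lost on TPM without scaling (adjusted p = 0.0724).

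Hmga2 was lower in XX mESC by -0.87 (SE 0.27, adjusted p = 0.0234), although its 3 XX libraries (3.77 to 4.27) and 3 XY libraries (7.92 to 8.91) lay well apart. This call was lost without any 1 of 4 of the 6 libraries, XX 1, XX 3, XY 1 and XY 3 (adjusted p up to 0.0726). It was also lost on unscaled TPM (-1.09, adjusted p = 0.0932) and with no filter on low values (adjusted p = 0.0577). TPM rescaled over nuclear protein-coding genes lost it too (-0.84, adjusted p = 0.1035). The SE of 0.27 again came from the spread over all 19 libraries. In EpiLC the Hmga2 difference was -0.71 (SE 0.27, adjusted p = 0.0544). A limma fit of only the XX and XY EpiLC groups gave it an SE of 0.058 and called it (adjusted p = 0.000186). Dgcr8 was lower in XX EpiLC by -0.67 (SE 0.22, adjusted p = 0.0282), a call also lost without any 1 of XX 1, XX 2, XY 2 and XY 3 (adjusted p up to 0.0973). The Dgcr8 call was lost as well on TPM rescaled over nuclear protein-coding genes (-0.79, adjusted p = 0.0727) and with no filter (adjusted p = 0.0692). Drosha, at -0.56 (adjusted p = 0.0657) in mESC, was called without XX mESC library 2 (-0.70, adjusted p = 0.0302) or XY mESC library 2 (-0.73, adjusted p = 0.0287). Dicer1 and Ago2 were called in neither state.

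The difference of the transitions, XX minus XY, was called for 1 of 8 genes, Lin28b, and over all tested genes 10.9% were called higher and 12.8% lower. Lin28b rose less in XX by -1.20 (SE 0.19, adjusted p = 0.000274) on the log2(scaled TPM + 1) scale. With a pseudocount of 0.1 the difference was -0.49 and was not called (adjusted p = 0.379), and the ratios of EpiLC to mESC means, 40.5 in XX and 42.8 in XY, were close. Lin28a rose more in XX by 0.83 (SE 0.35), which did not pass the test (adjusted p = 0.0988); it was called with a pseudocount of 0.1 (1.55, adjusted p = 0.0374), without XX mESC library 2 (1.09, adjusted p = 0.0174) and without XY mESC library 2 (1.101, adjusted p = 0.0209).

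The transcripts behind the sums differed in coding content. Trim71 had 1 transcript in the table. Lin28a-201 made up 88.2% to 98.8% of Lin28a in the group means, Hmga2-201 86.7% to 94.8% of Hmga2, and Drosha-201 80.3% to 87.9% of Drosha. The protein-coding Lin28a-202 held 11.75% of Lin28a in XX mESC and less in every other group. For Lin28b the protein-coding Lin28b-201 held 54.8% to 72.2%, and the rest was in 2 non-coding transcripts. Dgcr8 had its protein-coding transcripts together at 43.4% to 58.4% and 1 retained-intron transcript at 14.3% to 18.1%. In Dicer1 the protein-coding transcripts together held 56.2% to 61.2%, of which Dicer1-201 held 21.6% to 33.7% of the gene and a second one 27.5% to 35.2%, and a non-coding transcript held 28.4% to 36.1%, and in Ago2 a non-coding transcript held 33.5% to 43.0%.

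Several loci share sequence with neighbours. Dgcr8 overlaps Trmt2a (up to 21.0 TPM) and Ago2 overlaps Chrac1 (up to 15.1 TPM) on the opposite strand. The libraries were stranded, but whether the quantification used strand is not given in the sources used here, so reads of these overlaps may be split between partners.

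A list of 16 other let-7 targets was described beside Trim71 and Hmga2. This list and those below were chosen with earlier results of these data known. Their counts and medians are thus a description and no test of let-7 targets against other genes. All tested genes had shares called higher and lower of 24.5% and 25.9% in XX and 26.4% and 25% in XY. In Tet3-/- these shares were 25.2% and 27.2%. Of the 16 targets, 10 were called higher and 3 lower in XX, 9 and 3 in XY, and 9 and 2 in Tet3-/-. Without mutant 3 the Tet3-/- counts were the same. There the call of Igf2bp1 was lost (0.80 with it, 0.51 and adjusted p = 0.0790 without) and that of another target gained. Median changes of the list were 0.68 (XX), 0.51 (XY) and 0.78 (Tet3-/-; 0.55 without mutant 3), beside the medians near 0 over all tested genes given above. On TPM without scaling the calls were 8 higher and 1 lower, 10 and 0, and 6 and 1. Of the 16, 11 held the 7-base match in their longest 3′ UTR. Among those without it were Myc, Mycn, Ccnd1 and Ccnd2. Of tested 3′ UTRs of like length, from 4.13% (for Myc) to 34.7% (for Igf2bp1) held at least 1 match.

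Among those called higher in all 3 genotypes were Arid3a and Arid3b, which encode DNA-binding ARID proteins, the chromatin protein gene Hmga1, the RNA-binding protein gene Igf2bp3, the cyclin gene Ccnd2, and Myc. Arid3a went from 2.26 ± 0.45 to 8.90 ± 0.07 scaled TPM in XX (SD, n = 3 each), a rise of 1.61 (adjusted p = 4.12e-09), and rose by 0.99 in XY (adjusted p = 1.16e-06) and 1.75 in Tet3-/- (adjusted p = 4.65e-10). Igf2bp2, a paralogue of Igf2bp3, was the gene called lower in all 3 (-1.47, -1.20 and -1.01, adjusted p = 0.000323, 0.00171 and 0.00352), the XY call being lost on unscaled TPM (-0.59). Mycn was called lower in XX (-1.40, adjusted p = 0.00472) and in Tet3-/- (-0.91, adjusted p = 0.0370; -1.54 without mutant 3), and in XY was -0.01 (adjusted p = 0.989). Both Mycn calls were lost on unscaled TPM (-1.20, adjusted p = 0.0919, and -1.02, adjusted p = 0.118).

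Ccnd1, which encodes cyclin D1, rose in XX by 1.44 (adjusted p = 0.00297), from 3.19 ± 1.3 to 10.0 ± 0.46 scaled TPM, and fell in XY by 1.00 (adjusted p = 0.0265; not called on unscaled TPM, -0.36), from 28.0 ± 3.3 to 13.4 ± 0.43 (SD, n = 3 each). The difference between those transitions was 2.44 (adjusted p = 0.00209), and on TPM without scaling it was 1.92 and was not called (adjusted p = 0.0808). Against XX, Tet3-/- had 0 of 16 targets called in mESC (by limma, with 2 at an unadjusted p under 0.05) and 1 in EpiLC, Ccnd2 (0.74, adjusted p = 0.0300; 0.43, adjusted p = 0.0480 without mutant 3), which was not called on TPM without scaling (adjusted p = 0.472). XX had 1 target called higher and 7 lower than XY in mESC, and 1 higher and 4 lower in EpiLC, and on unscaled TPM 0 higher and 2 lower, and 0 and 9. Of all tested genes 17.7% were called higher and 13.6% lower for XX against XY in mESC, and 17.2% and 16.6% in EpiLC. For Tet3-/- against XX these shares were 1.77% and 1.41% in mESC, and 2.5% and 2.97% in EpiLC.

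**Figure D4:**
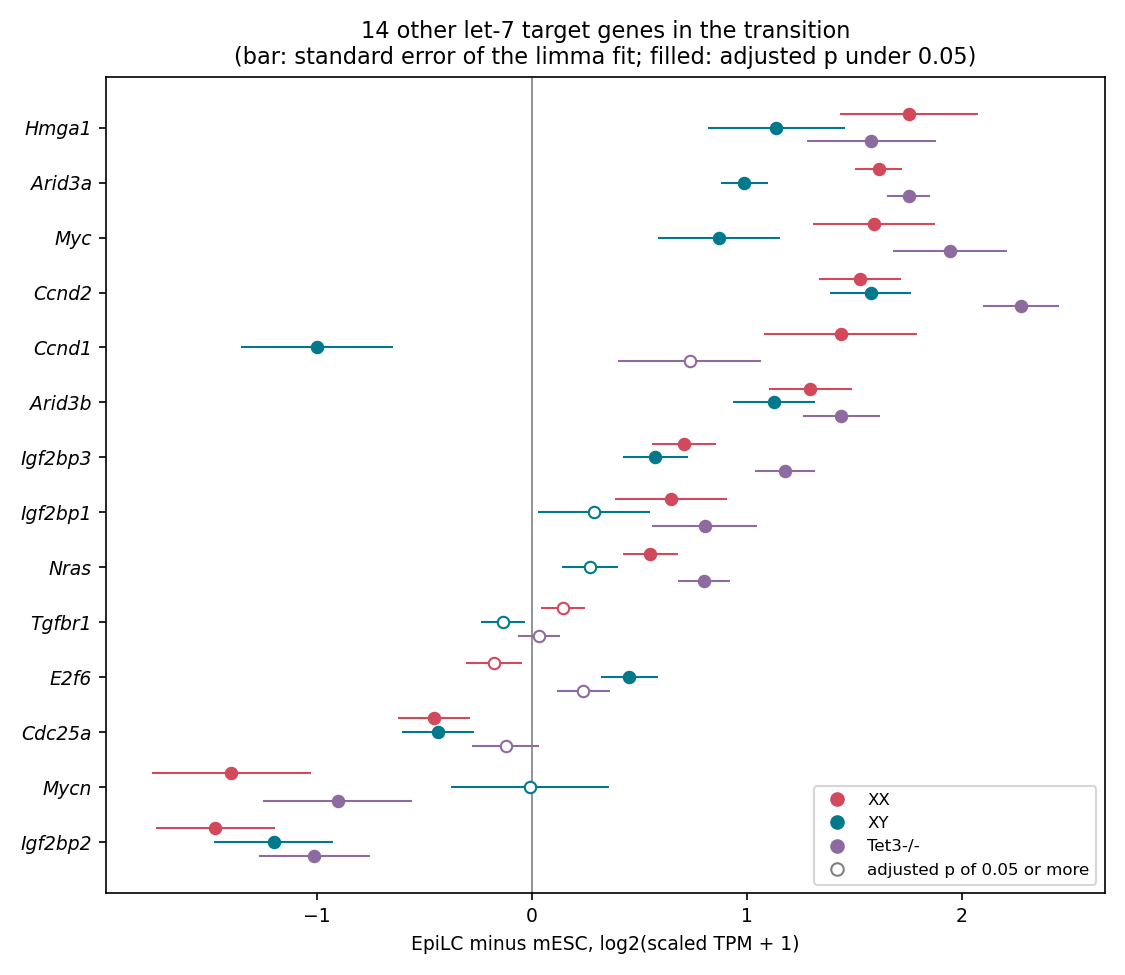
Change of 14 of the 16 further let-7 target genes from mESC to EpiLC (x axis: log2(scaled TPM + 1) difference; bars: standard errors; filled points: adjusted p under 0.05) in XX, XY and Tet3-/-. Most points lie right of 0, Igf2bp2 lies left of it in all 3, and Ccnd1 is right of 0 in XX at 1.44 and left of it in XY.

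Other genes of the pathway were described by list, and the shares over all tested genes in the transitions are those given for the let-7 targets. Of 3 genes of let-7 uridylation and decay, Tut7 rose in XX (0.33, adjusted p = 0.0130) and Tet3-/- (0.26, adjusted p = 0.0304), and Tut4 (0.73, adjusted p = 0.0166) and the exonuclease gene Dis3l2 (0.45, adjusted p = 0.00438) rose in XY. Of 5 microprocessor cofactors 0 passed in XX and XY by limma (0 also at an unadjusted p under 0.05), and 1, the helicase gene Ddx5, was higher in Tet3-/- EpiLC than mESC (0.25, adjusted p = 0.0146). Of 3 export and dicing genes only Prkra, which encodes a DICER1 partner, passed, in XY (1.01, adjusted p = 0.00218). The Tut7 and Ddx5 calls were lost on unscaled TPM.

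Of 7 effector genes 6 were tested, since Ago4 was below the filter, and 2 were called higher and 1 lower in XX, 4 and 1 in XY, and 1 and 2 in Tet3-/-, against 1 and 0, 4 and 0, and 0 and 1 on unscaled TPM. Beside them stand the shares over all tested genes, 24.5% higher and 25.9% lower in XX and 26.4% and 25% in XY. In Tet3-/- these shares were 25.2% and 27.2%. The GW182 family gene Tnrc6b rose in all 3 genotypes (1.27, 1.32 and 0.97, adjusted p = 0.000366, 0.000262 and 0.00180), and Mov10, an RNA helicase gene, fell in all 3 (-0.47, -1.01 and -0.90, adjusted p = 0.00487, 3.82e-06 and 5.83e-06). Of these 3 falls, that in Tet3-/- was called on unscaled TPM (-1.06, adjusted p = 0.00331), as were the Tnrc6b rises in XX and XY. Mov10 was also lower in Tet3-/- than in XX EpiLC (-0.50, adjusted p = 0.0253), a call lost without mutant 3 (-0.45, adjusted p = 0.0786).

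Among microRNA host genes, Mirg, the host transcript of the microRNA cluster in the Dlk1-Dio3 region, had 4.82 ± 0.69 scaled TPM in XX mESC and 14.9 ± 5.9 in Tet3-/- mESC (SD, n = 3 and n = 4), with ranges of 4.08 to 5.46 and 9.72 to 22.8 that did not overlap. It was 1.39 higher in Tet3-/- mESC (SE 0.22, adjusted p = 0.00214; 1.60 and adjusted p = 0.0421 on TPM without scaling), and in EpiLC the difference was not called. It rose in the transition of all 3 genotypes (3.23, 2.18 and 2.18, adjusted p = 8.44e-09, 7.53e-07 and 3.15e-07). Mir17hg, host of the miR-17 cluster, rose in XX (0.54, adjusted p = 0.0291; not called on unscaled TPM). All 11 let-7 hairpin genes were listed at 0 in every library, and the other 13 hairpin genes reached at most 1.66 TPM; total RNA libraries of this kind are not made to hold such short RNAs, so these rows say nothing of mature let-7.

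The genes with the most similar profile over the 19 libraries were named by Pearson's r of log2(scaled TPM + 1) among 8231 tested genes whose mean TPM reached 5. The points share library, cell state and genotype, and r is a description. For Lin28a they were Pcbp4 (r = 0.994) and Map7d1 (0.986), for Lin28b Emb (0.990) and Flywch1 (0.987), for Trim71 Cbx5 (0.974) and Chd4 (0.974), and for Dicer1 Xpo7 (0.974) and Mapk1ip1l (0.965). For Dgcr8 they were Raver1 (0.937) and Celf1 (0.932), for Drosha Ppp6r1 (0.938) and Hnrnpd (0.926), for Hmga2 Zfp125 (0.901) and Gm38699 (0.892), and for Ago2 Fam193a (0.878) and Strn (0.832). Without the mutant 3 EpiLC library these 16 values lay between 0.836 and 0.994.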

How the data were processed

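RNA was sequenced in 19 libraries of 6 groups with a stranded total RNA kit after ribosomal RNA depletion, per the labels. The authors deposited one table of TPM for 140948 transcripts, each column summing to 1000000. The submitters' processing notes name FastQC 0.11.7, Trimmomatic 0.35, Salmon 1.1.0 and GRCm38; further settings are not given in the sources used here. Columns were mapped to libraries by their headings, which are the sample descriptions, and 0 columns were left unused.

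Transcripts were summed per gene with GENCODE M21 in Python 3.11.15 (139357 matched with version, 495 without, 1096 unmatched and left out, at most 0.215% of TPM). Gene TPM was divided by a median-of-ratios factor over 13815 genes. The test covered genes reaching TPM 1 in 3 or more libraries and was run with limma 3.58.1 (lmFit, contrasts.fit, eBayes with trend; R 4.3.3) on log2(scaled TPM + 1), over all 6 groups and 9 contrasts, Benjamini-Hochberg adjusted within each contrast over all tested genes. The fit was tested on simulated data.

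The 8 genes are named in all contrasts, with their transcripts of at least 10% of a gene's TPM in a group mean, the genes of fixed lists, and the 2 most correlated genes per member. The lists hold let-7 targets, let-7 uridylation and decay, microprocessor cofactors, export and dicing, effectors, and microRNA host and hairpin genes. Of the let-7 targets, 2 enter the counts and medians but are not reported singly here. Members and lists were chosen with earlier results of these data known. Alternatives were other scalings, pseudocount and filters, a fit of the compared groups, a replicate block, a fold threshold, and each library left out.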

Additional observations from a re-analysis of the deposited data

Results flagged for a closer look

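In Tet3-/- mESC, the group of 4 libraries, Dicer1 in mutant 1 was 9.12 scaled TPM, far below the other three (11.3 to 11.4); 1 of 8 genes examined this way stood out, and chance flags about 1 in 20. The difference of transitions XX minus XY passed the test for Lin28b (-1.20) and, among the list genes, for Ccnd1 (2.44), Mirg (1.05), Arid3a (0.63), Mov10 (0.54), Tnrc6c (-0.65) and E2f6 (-0.63), on the log2(scaled TPM + 1) scale. On TPM without scaling limma still called Lin28b (-1.86, adjusted p = 0.00313), and these 6 list genes were not called. With a pseudocount of 0.1 the Lin28b call was lost (-0.49, adjusted p = 0.379). Of 16 let-7 targets 2 were called higher and 2 lower, among them a gene not reported singly. Of the 19 tested genes on the other lists 2 were called higher and 1 lower. Over all tested genes 10.9% were called higher and 12.8% lower.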

How the results depend on the processing

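Over the 8 genes, 9 contrasts and all alternatives, 956 of the single values kept direction and call, 31 lost and 21 gained a call, 48 uncalled values changed sign, and no called value reversed. Requiring a log2 change of at least 1 left 3 calls in XX and 2 each in the XY and Tet3-/- transitions (5, 5 and 4 otherwise), and 1 each for XX against XY in mESC and EpiLC (3 otherwise). On TPM without scaling there were 3 calls in the XX and 2 in the Tet3-/- transition, 1 for XX against XY in mESC and 6 in EpiLC. A fit of only the 2 groups compared gave 7 for XX against XY in EpiLC. Leaving out 1 library gave 0 to 1 calls for Tet3-/- against XX in mESC and 1 to 2 for the difference of transitions XX minus XY; the other counts stayed within 1.5 times those with all libraries (2 to 4 against 3 for XX against XY in mESC). With a replicate block XX against XY gave 0 calls in mESC and 8 in EpiLC, and the transitions 5, 5 and 4. Within a cell state that block matched libraries of different groups by number, a link the labels do not give. No conclusion is drawn from the block counts of those contrasts. The numbers were not taken to pair libraries: over 9 same-numbered mESC and EpiLC pairs, deviations from group means correlated from -0.094 to 0.274, with 4 over 0.1. Over all genes, scaled against unscaled TPM called 7541 and 4689 genes in the XX transition, 476 and 90 (mESC) and 818 and 161 (EpiLC) for Tet3-/- against XX, 4683 and 2121 for XX against XY in mESC, 3547 and 2397 for the XX minus XY difference, and 99 and 26 for the Tet3-/- minus XX difference; without the mutant 3 EpiLC library the last had 190. With the replicate block Tet3-/- against XX gave 0 calls in mESC and EpiLC over all genes, XX against XY 404 and 9163, and the Tet3-/- minus XX difference 14. The list counts and medians without mutant 3, and the median of the 8 genes, were an alternative chosen after seeing the data; of them the effectors went from 1 to 0 called for Tet3-/- against XX in EpiLC. The cause of these shifts was not tested. Depth is unknown, so the precision of levels under 1 scaled TPM, such as Lin28b in mESC, rests on the spread between libraries.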
